A study of Homo sapiens with 4 samples.

Results

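The genes described here encode 4 families of pre-mRNA splicing factors in TOV21G cells, an established line from a human clear cell carcinoma of the ovary. Members were all deposited gene symbols that begin with HNRNP, with SNRP, with SRSF and a number, or with LSM and a number, and whose mean was at least 1 FPKM over the 4 libraries (FPKM, fragments mapped per kilobase of transcript, scaled to a fixed number of mapped fragments). Of 69 symbols that matched, 60 met this rule, out of 26255 symbols in the table and 12260 with such a mean. The members comprised 24 of 31 HNRNP symbols, 12 of 12 SRSF, 11 of 13 SNRP and 13 of 13 LSM symbols. The lowest means inside the limit were 3.03 FPKM for LSM11 and 3.07 FPKM for LSM8, and the nearest one outside was 0.266 FPKM for the pseudogene HNRNPA1P33. The other 8 symbols outside it were listed at 0 in all 4 libraries: HNRNPA3P1, HNRNPCL1, HNRNPCL2, HNRNPCL3, HNRNPCL4, HNRNPKP3, SNRPD2P2 and SNRPN.

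Of the 4 cultures, 1 received no drug, 1 received As2O3 (arsenic trioxide, which binds protein thiols and is given in acute promyelocytic leukaemia) at 1 µM, 1 received GSK458 (an inhibitor of the growth kinases PI3K and mTOR) at 0.1 µM, and 1 received both at these doses. Treatment lasted 48 h, and for the control culture no time is stated in the sources used. Each group had 1 library, so no value below has a replicate error, no test was run, and each difference compares 2 libraries rather than 2 conditions. A single line was used, in bulk, so fewer cells of a kind and less RNA per cell cannot be told apart.

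Splicing removes introns from pre-mRNA on the spliceosome, which is built from small nuclear ribonucleoproteins (snRNPs). SNRP genes encode the Sm proteins, which form a ring around the spliceosomal U1, U2, U4 and U5 RNAs, and proteins specific to U1 or U2. LSM genes encode Sm-like proteins, whose nuclear ring binds U6 RNA and whose cytoplasmic ring takes part in mRNA decapping. SR proteins, encoded by SRSF genes, bind exonic enhancers and promote the use of nearby splice sites, while hnRNP proteins coat nascent transcripts and often repress splice sites. Many SR and hnRNP genes limit their own mRNA through alternative exons that lead to its decay, a layer that a value per gene does not show.

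The libraries had FPKM sums of 543975 to 588892, and the steps between low values put their depths at 85.8% to 109% of the control's. Among markers of the labelled cell type, the annexin ANXA4 stood at 156 to 309.6 FPKM and the keratins KRT8 and KRT18 at 166 to 241 FPKM, whereas the clear cell carcinoma marker NAPSA (0.665 to 1.06 FPKM) and the epithelial adhesion molecules EPCAM (0.608 to 1.71 FPKM) and CDH1 (0.0162 to 0.218 FPKM) were low in each library. Of 8 immune markers 4, including PTPRC, and of 7 fibroblast markers 2, COL3A1 and LUM, were listed at 0 throughout. The immune list summed to 1.07 to 4.38 FPKM, nearly all of it CD68, the fibroblast list to 2.57 to 5.98 FPKM and the endothelial list to at most 0.0786 FPKM.

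Splicing factor genes stood lower in the drug-treated libraries, most of all in those that held GSK458. Differences are on the log2(FPKM + 1) scale, which understates those of low genes, and a gene was counted as higher or lower when it was at least 1.5-fold apart on this scale. With GSK458, 20 of 60 members were lower than in the control, where 10.3% of all genes were, and 1 was higher, where 8.61% of all genes were. Their median difference was −0.41, against −0.01 over all genes. With both drugs, 25 members were lower than in the control (11.7% of all genes) and 0 were higher (9.93% of all genes), with a median of −0.44 against −0.01. With As2O3 alone, 6 members were lower (6.45% of all genes) and 1 was higher (7.43% of all genes), with a median of −0.10 against 0.01, so the counts with As2O3 were near the background over all members. The control library held the highest value of 36 of the 60 members, or 60% of them, which was so for 27.6% of all genes. The 3 comparisons above share that library. The members summed to 6080 FPKM untreated, 5440 under As2O3, 5267 under GSK458 and 4735 under both drugs, or 1.12%, 0.942%, 0.894% and 0.835% of each library's FPKM.

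Past 2-fold, 0 members were higher in any of the 5 comparisons, where 2.07% of all genes were under As2O3, 2.35% under GSK458 and 3.25% under both drugs against the control, 0.644% with both against GSK458 and 2.28% with both against As2O3. With GSK458, SNRPA1, SNRPG and LSM4 were lower by that much. These were 3 of 60 members, a count near the share of all genes (3.87%). With both drugs, 6 members were (4.31% of all genes): SNRPA1, SNRPF, SNRPG, LSM3, LSM4 and LSM10. Against As2O3 alone, the combination had 5 (4.27% of all genes), namely SNRPA, SNRPA1, SNRPG, LSM4 and LSM10, and against GSK458 alone it had 0 (0.318% of all genes). With As2O3 alone 1 member of 60 was lower by that much, HNRNPM, a count also near the share of all genes (1.41%).

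**Figure D1:**
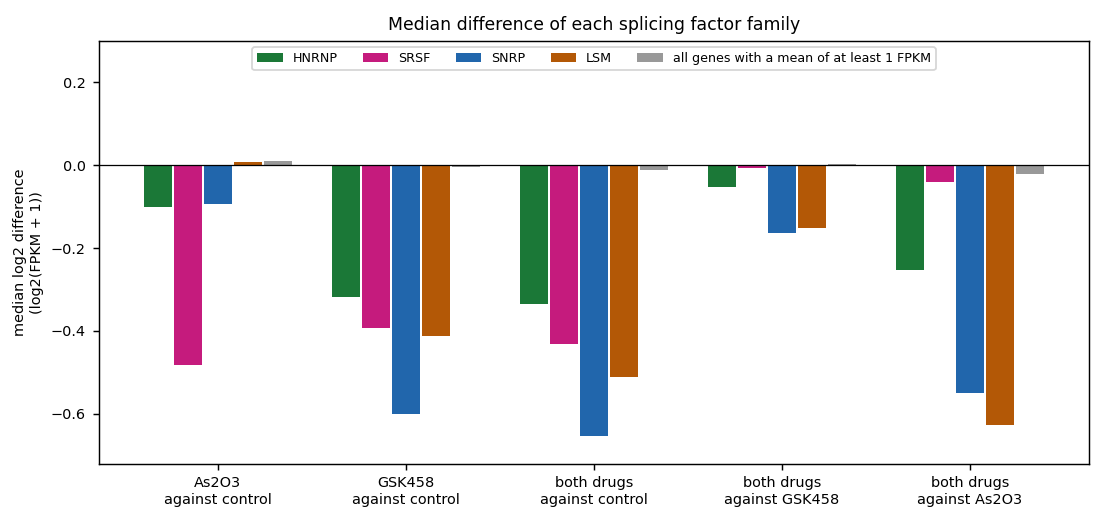
Bars give the median log2(FPKM + 1) difference of each family, and of all 12260 genes that averaged 1 FPKM or more, in 5 comparisons of 1 library with another. SNRP and LSM medians lay between −0.41 and −0.65 in the 3 comparisons that contrast a GSK458-treated library with one without it, and the SRSF median was −0.48 with As2O3 alone.

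The SR proteins were the family in which the As2O3 library stood lowest relative to the control. Its median there was −0.48, with 5 of 12 members at least 1.5-fold lower (6.45% of all genes) and 0 higher (7.43% of all genes). With GSK458 the median was −0.39 with 4 of 12 lower (10.3% of all genes). With both drugs it was −0.43 with 4 of 12 lower (11.7% of all genes). SRSF3, the smallest of the shuttling SR proteins, stood at 102 FPKM untreated, 59.3 under As2O3, 54.1 under GSK458 and 56.4 under both drugs. SRSF1, the founding member that also acts in mRNA export and translation, had 59.5, 32.6, 34.9 and 34.6 FPKM in these libraries, the order used for 4 values below. For both genes the control was high and the 3 treated libraries lay close together, with log2 differences from the control of −0.78, −0.91 and −0.85 for SRSF3 and −0.85, −0.76 and −0.77 for SRSF1. In GENCODE release 29, 50.8% of the 50-base words of SRSF1 transcripts also stand in AC015813.2, so the level of SRSF1 is uncertain. SRSF1, SRSF3 and HNRNPM were the 3 members that were at least 1.5-fold lower in each treated library, or 5% of members, against 1.69% of all genes.

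Other SR genes were lowest with As2O3 alone. SRSF6, a regulator of alternative exons, stood at 41.0 FPKM untreated, 22.2 under As2O3, 43.3 under GSK458 and 42.6 under both drugs. Its value with As2O3 was the low one, at −0.85 from the control, while both GSK458-treated libraries were within 0.08 of the control. SRSF8, a close relative of SRSF2, had the same order at 13.5, 8.11, 13.7 and 13.5 FPKM. SRSF10, which acts as a splicing repressor when dephosphorylated, stood at 15.9, 9.67, 11.6 and 10.9 FPKM, and was past 1.5-fold only with As2O3, at −0.67. With a pseudocount of 5 FPKM the As2O3 differences of SRSF8 and SRSF10 were −0.49 and −0.51, under 1.5-fold. SRSF5 was lowest with As2O3 as well, at 63.7 FPKM against 80.1 to 85.9 FPKM elsewhere, a difference of −0.43 from the control.

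SRSF7 and SRSF2 were instead lowest with GSK458. SRSF7, an SR protein with a zinc knuckle, stood at 48.5 FPKM untreated, 44.9 under As2O3, 24.5 under GSK458 and 27.6 under both drugs. Only the libraries with GSK458 were low, at −0.96 and −0.79 from the control. SRSF2, which stays in the nucleus and marks nuclear speckles, stood at 99.6, 68.4, 55.2 and 64.1 FPKM, or −0.54, −0.84 and −0.63 from the control. SRSF9, the most abundant SR gene in the control, stood at 167, 151, 117 and 117 FPKM and did not reach 1.5-fold.

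SRSF4, SRSF11 and SRSF12 did not share the low As2O3 value. SRSF4 stood at 42.3 FPKM untreated, 57.7 under As2O3, 32.9 under GSK458 and 33.6 under both drugs, so it was highest with As2O3 and lower by 0.76 in the combination than with As2O3. SRSF12, the least abundant SR gene, was also highest with As2O3, at 3.68, 5.47, 2.80 and 2.66 FPKM. SRSF11 stood at 47.7 FPKM in the control and 59.4 to 62.0 FPKM in the treated libraries, and was the only SR gene whose control value was the lowest of the 4.

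**Figure D2:**
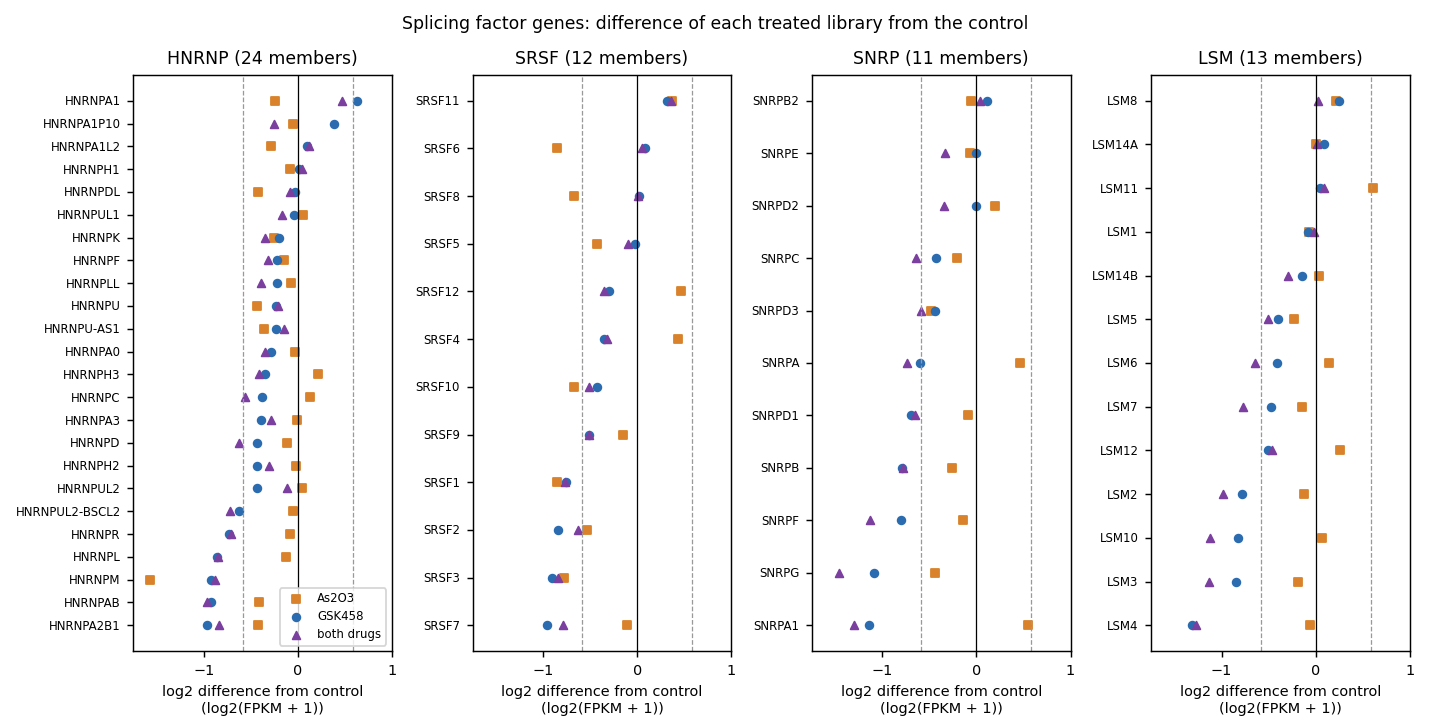
Each point is 1 member's log2(FPKM + 1) difference between a treated library and the control, with members of each family ordered by their difference with GSK458 and dashed lines at 1.5-fold. In the SNRP and LSM panels most points of GSK458 and of both drugs lie left of those of As2O3, and in the SRSF panel SRSF6 and SRSF8 lie left only with As2O3.

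Of the 24 HNRNP members, 20 were below the control under As2O3, 20 under GSK458 and 21 under both drugs, where 48.6%, 50.5% and 51.1% of all genes were, mostly by less than 1.5-fold. Their medians were −0.10, −0.32 and −0.33. HNRNPM, which binds GU-rich RNA and regulates alternative exons, stood at 104 FPKM untreated, 34.2 under As2O3, 54.5 under GSK458 and 56.0 under both drugs. The As2O3 library held the low value, 2.98-fold below the control and the lowest difference of any member there (−1.58). The libraries with GSK458 were also low, at −0.92 and −0.88.

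HNRNPA1, an abundant repressor of splice sites that shuttles to the cytoplasm, was the member that stood higher with GSK458. Its levels were 779 FPKM untreated, 659 under As2O3, 1203 under GSK458 and 1076 under both drugs, the highest of any member in each library. Both GSK458-treated libraries were above both others, by 0.63 for GSK458 against the control and 0.71 for the combination against As2O3. The first of these was 0.51, under 1.5-fold, with each library rescaled to the same FPKM sum. HNRNPA1P10, a processed copy of HNRNPA1, was listed at 421, 405, 549 and 354 FPKM, and HNRNPA1L2, another copy, at 3.78, 2.92, 4.09 and 4.17 FPKM. HNRNPA1 transcripts also hold 72.8% of the 50-base words of HNRNPA1P10 and 47.6% of those of HNRNPA1L2, and how the authors counted reads that fit several genes is not stated in the sources used. The levels of these 3 genes are uncertain.

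HNRNPA2B1, HNRNPAB, HNRNPL and HNRNPR were the further protein-coding HNRNP genes at least 1.5-fold lower with GSK458. HNRNPA2B1, the partner of HNRNPA1 in the core hnRNP particle, stood at 293 FPKM untreated, 218 under As2O3, 149 under GSK458 and 164 under both drugs. Both GSK458-treated libraries were low, at −0.97 and −0.84, which is the opposite side from HNRNPA1. HNRNPAB, a related RNA-binding protein, stood at 96.5, 72.4, 50.5 and 48.8 FPKM. HNRNPL, which binds CA repeats, stood at 174, 160.1, 95.3 and 96.1 FPKM, with As2O3 close to the control and both GSK458-treated libraries close to each other. HNRNPR had the same order at 34.5, 32.5, 20.4 and 20.7 FPKM. HNRNPD, a protein of AU-rich element decay, passed 1.5-fold only with both drugs, at 165 FPKM in the control and 106 FPKM in the combination.

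The remaining HNRNP members were within 1.5-fold of the control in each treated library, except the readthrough HNRNPUL2-BSCL2. HNRNPC, which binds uridine tracts, stood at 195 FPKM untreated, 214 under As2O3, 149.9 under GSK458 and 132 under both drugs, and was 0.69 lower in the combination than with As2O3. HNRNPH3 had the same order at 88.2, 102, 69.2 and 65.8 FPKM. It was 0.63 lower in the combination than with As2O3, and 0.56 lower, under 1.5-fold, with upper-quartile scaling. HNRNPK, the KH-domain protein and second most abundant protein-coding member in the control, stood between 233 and 298 FPKM, and HNRNPF and HNRNPH1, which bind G runs, between 145.0 and 181 FPKM and between 126 and 138 FPKM. HNRNPA0, HNRNPA3, HNRNPDL, HNRNPH2, HNRNPLL, HNRNPUL1 and HNRNPUL2 also stayed within 1.5-fold in the 5 comparisons. The readthrough also holds 43.2% of the 50-base words of HNRNPUL2, so the level of HNRNPUL2 is uncertain. HNRNPU, a nuclear scaffold protein, stood at 104, 76.4, 88.5 and 89.4 FPKM, and HNRNPU-AS1, its antisense neighbour, had the same order at 12.0, 9.12, 10.1 and 10.8 FPKM. Reads of an antisense pair cannot be told apart where strand was not used, and the strand setting is not stated in the sources used. HNRNPUL2-BSCL2, a readthrough that stood at 28.5, 27.4, 18.1 and 16.9 FPKM, shares 98.8% of its 50-base words with other genes and is uncertain. It was past 1.5-fold with GSK458 (−0.63) and with both drugs (−0.72) against the control, and in the combination against As2O3 (−0.67).

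**Figure D3:**
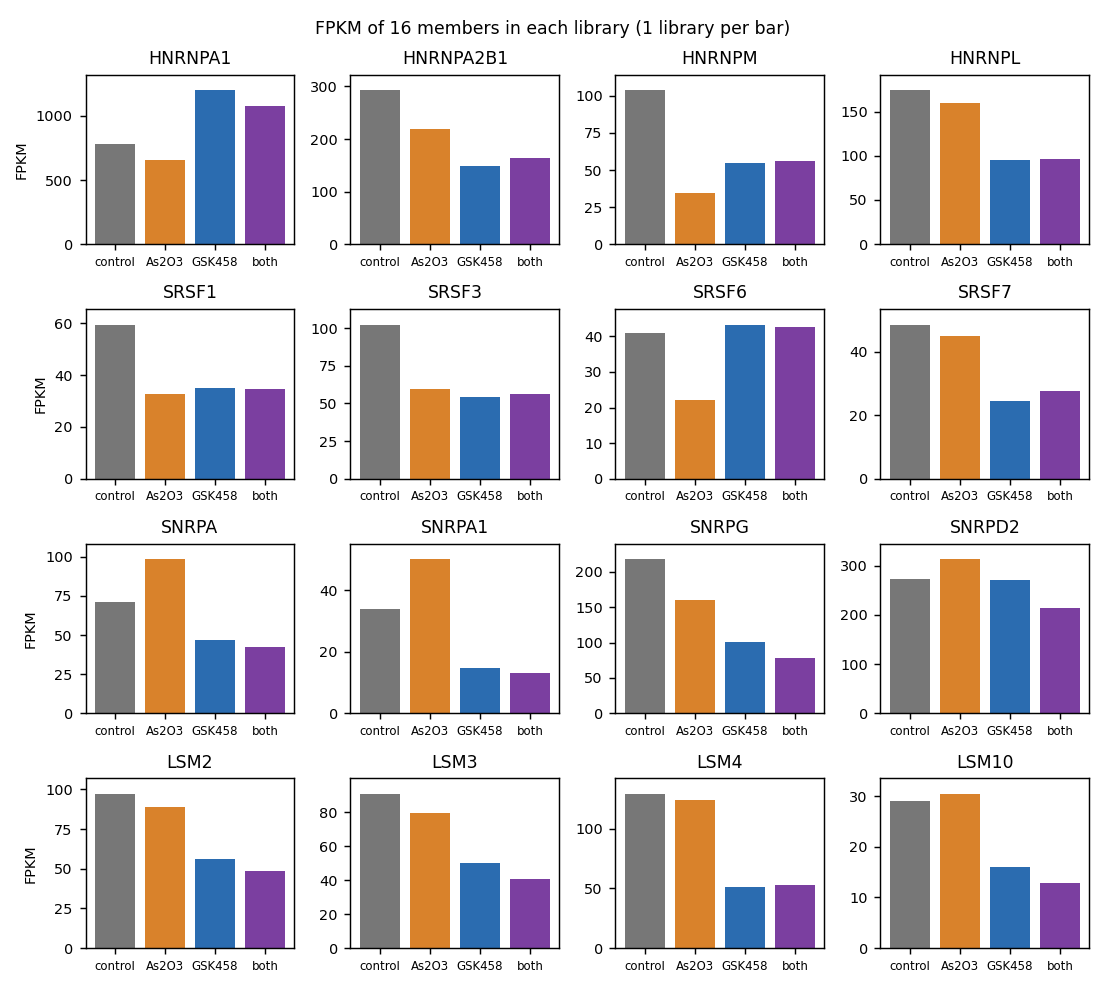
Bars give the FPKM of 16 members without drug, with As2O3, with GSK458 and with the combination, 1 library per bar, each panel on its own axis from 0. HNRNPA1 is highest in the libraries with GSK458, SRSF6 is low with As2O3 alone, and SNRPA1, SNRPG and the 4 LSM genes are low in both libraries with GSK458.

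SNRP genes had the lowest median with GSK458, at −0.60, with 10 of 11 members below the control (50.5% of all genes) and 6 at least 1.5-fold lower (10.3% of all genes). With both drugs the median was −0.65 and 8 of 11 were lower (11.7% of all genes). With As2O3 alone it was −0.09 with 0 past 1.5-fold, where 6.45% of all genes were lower and 7.43% higher. SNRPA1, the U2 A′ protein that with SNRPB2 binds the U2 RNA, stood at 34.0 FPKM untreated, 50.2 under As2O3, 14.9 under GSK458 and 13.2 under both drugs. The As2O3 library was high and both GSK458-treated libraries were low, with differences of 0.55, −1.14 and −1.30 from the control. The combination stood 3.60-fold below As2O3 alone, the largest difference of any member in that comparison (−1.85). SNRPB2, its U2 partner, did not share this order and stood at 32.8, 31.4, 35.6 and 33.6 FPKM.

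SNRPA, the U1 A protein, had the order of SNRPA1, at 71.1 FPKM untreated, 98.4 under As2O3, 46.5 under GSK458 and 42.3 under both drugs. Its value with GSK458 (−0.60 from the control) was at the edge of 1.5-fold, and was −0.56 with a pseudocount of 5 FPKM or with upper-quartile scaling. SNRPC, the zinc-finger protein of U1, stood at 70.0, 60.6, 51.6 and 44.4 FPKM. It was lowest in the combination, at −0.65.

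The 7 Sm ring genes differed in abundance and in response. In the control they ranged from 40.3 FPKM for SNRPE to 272 FPKM for SNRPD2, though 1 copy of each protein enters a ring. SNRPG stood at 218 FPKM untreated, 159.5 under As2O3, 101 under GSK458 and 78.2 under both drugs, and had the lowest value of any member in the combination against the control (−1.46). SNRPF stood at 107, 97.0, 60.9 and 48.2 FPKM, also lowest in the combination. SNRPB, which encodes the B and B′ proteins, stood at 225, 188, 129.5 and 130.4 FPKM, and SNRPD1 at 51.8, 48.4, 31.5 and 32.5 FPKM, so for these the 2 libraries with GSK458 were nearly equal. SNRPD2 and SNRPE were not lower with GSK458 alone. SNRPD2 stood at 272, 313, 271 and 213 FPKM and SNRPE at 40.3, 38.5, 40.3 and 31.9 FPKM, each lowest in the combination but by less than 1.5-fold. SNRPD3 stood at 40.7 FPKM in the control and 26.6 to 29.7 FPKM in the treated libraries. It passed 1.5-fold only with both drugs (−0.59), but not with a pseudocount of 5 FPKM (−0.53) or upper-quartile scaling (−0.57). The Sm ring genes summed to 955, 873, 665 and 561 FPKM.

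SNRPN, the brain-enriched paralogue of SNRPB in an imprinted locus, was listed at 0 in all libraries, and an exact 0 can be a failed estimate. SNRPN shares 25.8% of its 50-base words with other genes, most of them with SNURF, with which it shares a transcript.

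LSM genes had a median of 0.01 under As2O3, −0.41 under GSK458 and −0.51 under both drugs. None of the 13 was lower by 1.5-fold with As2O3 (6.45% of all genes), a count near the background. With GSK458 4 were lower (10.3% of all genes), and with both drugs 6 (11.7% of all genes). LSM4, a subunit of both the nuclear and the cytoplasmic ring, stood at 129 FPKM untreated, 124 under As2O3, 51.5 under GSK458 and 53.1 under both drugs. Its difference with GSK458, −1.31, was the lowest of any member in that comparison. LSM3 stood at 90.7, 79.5, 49.9 and 40.6 FPKM and LSM2 at 97.1, 88.7, 55.9 and 48.7 FPKM, so for these 3 ring subunits the 2 libraries with GSK458 were below the other 2. LSM7 (134, 121, 95.8 and 78.0 FPKM) and LSM6 (15.97, 17.7, 11.8 and 9.88 FPKM) were also lowest in the combination and passed 1.5-fold against the control only there, at −0.77 and −0.64. With a pseudocount of 5 FPKM that of LSM6 was −0.50, under 1.5-fold. LSM5 stood at 12.2, 10.2, 8.98 and 8.24 FPKM and did not pass it. With libraries rescaled to the same FPKM sum, LSM7 passed it with GSK458 as well (−0.60), and LSM5 passed it with both drugs (−0.59).

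The subunits that tell the rings apart did not have this order. LSM1, found in the cytoplasmic ring, stood at 25.6, 24.3, 24.0 and 25.2 FPKM, and LSM8, found in the nuclear ring, at 2.73, 3.34, 3.41 and 2.80 FPKM. Both stayed within 1.5-fold in the 5 comparisons. LSM10 and LSM11 encode Sm-like proteins of the U7 snRNP, which cuts histone pre-mRNA. LSM10 stood at 29.2 FPKM untreated, 30.5 under As2O3, 15.96 under GSK458 and 12.8 under both drugs, with both GSK458-treated libraries low at −0.83 and −1.12. LSM11 stood at 2.49, 4.32, 2.61 and 2.70 FPKM and was the 1 member higher with As2O3, at 0.61, a value under 1.5-fold with a pseudocount of 5 FPKM (0.31) and with upper-quartile scaling (0.57). LSM12 stood at 33.6, 40.3, 23.4 and 24.1 FPKM. The translation repressors LSM14A and LSM14B stood at 45.9 to 48.9 and 20.9 to 26.6 FPKM.

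Each drug could be read a second time, in the presence of the other, from library pairs that share no library with the first. For GSK458 both readings were low for most members. Against As2O3 alone, the combination had 19 members lower (11.6% of all genes) and 4 higher (9.46% of all genes), with a median of −0.32 against −0.02. In both readings 41 of 60 members were below 0, or 68.3%, against 37.0% of all genes, and 12 were at least 1.5-fold lower, or 20%, against 6.01%. These 12 were HNRNPL, HNRNPR, HNRNPUL2-BSCL2, SRSF7, SNRPA, SNRPA1, SNRPF, SNRPG, LSM2, LSM3, LSM4 and LSM10. With a pseudocount of 5 FPKM, HNRNPR (−0.55 against As2O3), HNRNPUL2-BSCL2 (−0.54 and −0.57) and SNRPA (−0.56 against the control) no longer passed in both readings, and with upper-quartile scaling HNRNPR and SNRPA (−0.56 each in the same readings) did not. Pearson's r between the 2 readings was 0.61 across members and 0.62 across all genes, which are not independent replicates. HNRNPA1 alone was higher in both.

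For As2O3 the second reading was near 0 for most members. Against GSK458 alone, the combination had 0 members higher (2.19% of all genes) and 1 lower (1.53% of all genes), with a median of −0.07 against 0.00. That 1 was HNRNPA1P10, whose value is uncertain. No member was at least 1.5-fold apart in the same direction in both readings of As2O3, where 0.538% of all genes were lower and 0.922% higher in both, so a count of 0 is near the background. Pearson's r across members was −0.14, against 0.23 across all genes. For SRSF1, SRSF3, SRSF6, SRSF8 and HNRNPM the second reading gave −0.01, 0.06, −0.02, −0.01 and 0.04, where the first had given −0.85, −0.78, −0.85, −0.67 and −1.58. SNRPG, SNRPD2, SNRPF and SNRPE had the lowest second readings among protein-coding members, at −0.37, −0.34, −0.33 and −0.33.

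**Figure D4:**
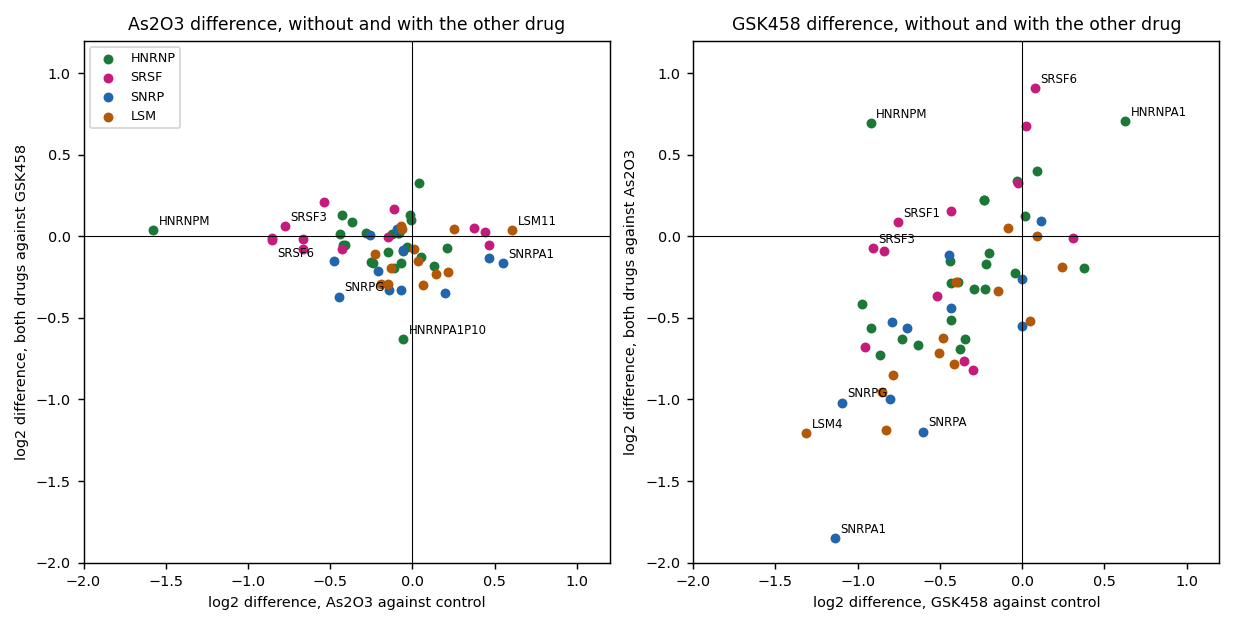
Each point is 1 member, with a drug's log2(FPKM + 1) difference without the other drug on the x axis and with it on the y axis. For As2O3 the points lie in a flat band around 0 on the y axis, with HNRNPM at −1.58 and 0.04, and for GSK458 they extend to the lower left, with SNRPA1 at −1.14 and −1.85 and HNRNPM at −0.92 and 0.70.

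The departure from additivity, the combination minus both single drugs plus the control on the log2 scale, was positive for most SR genes. It was at least 1.5-fold above 0 for 7 of 60 members (6.53% of all genes) and below it for 2 (7.57% of all genes), and 6 of the 7 were SRSF genes. SRSF1 and SRSF3 had departures of 0.84 and 0.84, since each drug alone gave about the level of the combination. SRSF6, SRSF2, SRSF8 and SRSF10 had departures of 0.83, 0.75, 0.65 and 0.59, and HNRNPM the largest, 1.62, the only departure past 2-fold (1.33% of all genes above, and 0 members against 2.05% below). SNRPA1 (−0.71) and SNRPA (−0.60) were the 2 below, and the median was 0.47 for SRSF, −0.02 for SNRP and −0.15 for LSM genes. Since the control and single-drug libraries enter the departure and the comparisons above alike, these are the same measurements in another arrangement.

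Genes that work with these families were read from lists of related genes. Of all genes, 6.45% were lower and 7.43% higher with As2O3, 10.3% lower and 8.61% higher with GSK458, and 11.7% lower and 9.93% higher with both drugs, so 1 or 2 genes past 1.5-fold in a short list say little about that list. The proliferation list moved with GSK458: 16 of 16 genes, among them MKI67 (31.7 FPKM untreated, 33.6 under As2O3, 2.08 under GSK458 and 7.21 under both drugs), were lower with GSK458, with a median of −2.73. The summed level of the list was 740 FPKM untreated, 705 under As2O3, 151 under GSK458 and 192 under both drugs, and its part in the members' values was not tested. Of 25 genes of the tri-snRNP and activated spliceosome, 2 were at least 1.5-fold lower with GSK458 and 0 higher, a count no higher than the background. These 2 were the cyclophilin PPIH (38.8, 34.2, 12.1 and 14.7 FPKM) and PRPF4. Smaller differences leaned the same way as in the members: 21 of the 25 were below the control, where 50.5% of all genes were. The list's median was −0.39, against −0.01 over all genes. TXNL4A was lower only with both drugs (47.2 against 30.1 FPKM). Of 15 U2 and branch point genes, U2AF2 was lower with GSK458 (54.9 against 34.7 FPKM) and SF3A2 higher, with a median of −0.30. SF3A2 was higher by 1.5-fold in each treated library (52.6, 83.9, 97.9 and 95.0 FPKM). Of the 7 snRNP proteins with SNRNP symbols, SNRNP40 of U5 and SNRNP25 of the minor spliceosome were lower, and SNRNP35 was lower with both drugs (17.5 against 10.1 FPKM), SNRNP48 was higher with As2O3 (6.72 against 11.8 FPKM), and SNRNP25 was also low with As2O3 (33.7, 16.4, 15.9 and 13.6 FPKM). Of 13 genes that assemble the Sm ring, GEMIN2 (13.8 against 7.15 FPKM) and GEMIN4 (10.3 against 5.87 FPKM) were lower. With As2O3, WDR77 was lower (16.7 against 10.7 FPKM) and SMN1, which has a near-identical copy and is uncertain, higher (1.44 against 3.30 FPKM).

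Among 8 kinases that phosphorylate SR proteins, CLK1 was higher in each treated library, at 9.19 FPKM untreated, 14.95 under As2O3, 19.8 under GSK458 and 24.0 under both drugs. CLK4 was higher with GSK458 and with both (2.21, 3.01, 3.90 and 4.58 FPKM), and CLK3 with As2O3 alone (26.4, 48.8, 22.2 and 24.4 FPKM). None of the 8 was lower than the control by 1.5-fold. Of 31 SR-like and other splicing regulators, TRA2A and TRA2B were among those lower with As2O3, PNN and PTBP3 were higher, and the list's median was −0.11. TRA2B, an SR-like activator, stood at 41.8, 23.1, 20.1 and 20.1 FPKM, with the control high and the treated libraries close together as for SRSF1 and SRSF3. TRA2A, its paralogue, stood at 28.6, 14.98, 19.5 and 20.1 FPKM, lowest with As2O3. With GSK458 TRA2B was lower, and the 2 higher genes of this list were PCBP2 (221 against 351 FPKM) and MBNL2.

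Of the 6 arginine methyltransferases, PRMT6 was lower in each treated library (16.3, 8.41, 10.02 and 9.45 FPKM), and PRMT7 was lower with As2O3 (13.5 against 7.35 FPKM). PRMT1, the main methyltransferase of hnRNP proteins, was lower only with both drugs (154 against 89.7 FPKM). Among 9 decapping and decay genes, partners of the LSM1-containing ring, DCP1A was higher with As2O3 (6.25 against 12.3 FPKM), and DCP1A and XRN1 with both drugs. Of 7 genes of histone pre-mRNA processing, partners of LSM10 and LSM11, CSTF2 was lower with GSK458 (8.57 against 4.83 FPKM) and FIP1L1 higher with As2O3 (21.1 against 35.9 FPKM). With GSK458, 6 of these 7 were below the control, where 50.5% of all genes were, with a median of −0.40. The 10 genes of nonsense-mediated decay, the route that removes mRNAs with the alternative exons named above, stayed within 1.5-fold in the 5 comparisons, with medians from −0.06 to 0.10.

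Promoter sequence was not used in the selection. RefSeq sequences (build GRCh38.p14, while the deposited values were made on hg19) from 250 bases before to 30 after the start were at hand for 52 of 60 member symbols, in 73 windows. The sequences below are those of members on which the results above turn: HNRNPM, SRSF1 and SRSF3, lower in each treated library, SRSF6, lower with As2O3 alone, and SNRPA1, with the largest difference between the combination and As2O3. Capitals mark matches on either strand to GCCATTT (part of the YY1 motif), CCGGAAG (an ETS-type motif), TTTGGCGC (an E2F-type motif) or TGACNNNGC (the core of the antioxidant response element). No match was found in the SRSF6 window, which says only that these letters are not there.
HNRNPM, chr19:8444725-8445004, plus strand: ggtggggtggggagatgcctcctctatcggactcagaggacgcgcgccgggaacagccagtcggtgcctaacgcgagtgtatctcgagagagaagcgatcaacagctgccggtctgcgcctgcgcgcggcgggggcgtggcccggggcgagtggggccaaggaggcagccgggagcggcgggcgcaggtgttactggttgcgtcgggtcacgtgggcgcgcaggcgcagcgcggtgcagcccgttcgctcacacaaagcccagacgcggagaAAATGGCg
SRSF1, chr17:58007217-58007496, minus strand: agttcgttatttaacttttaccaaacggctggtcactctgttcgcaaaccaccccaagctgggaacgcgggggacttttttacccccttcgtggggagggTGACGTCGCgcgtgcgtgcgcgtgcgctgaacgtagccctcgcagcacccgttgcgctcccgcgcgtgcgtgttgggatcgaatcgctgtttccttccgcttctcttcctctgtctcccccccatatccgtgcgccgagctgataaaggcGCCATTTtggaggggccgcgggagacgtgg
SRSF3, chr6:36594112-36594391, plus strand: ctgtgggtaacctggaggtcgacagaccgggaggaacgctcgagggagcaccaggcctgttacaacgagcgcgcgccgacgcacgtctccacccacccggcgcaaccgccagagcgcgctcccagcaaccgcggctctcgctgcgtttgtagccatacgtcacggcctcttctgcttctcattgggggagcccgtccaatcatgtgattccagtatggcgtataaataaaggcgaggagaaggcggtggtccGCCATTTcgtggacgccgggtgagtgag
SRSF6, chr20:43457646-43457925, plus strand: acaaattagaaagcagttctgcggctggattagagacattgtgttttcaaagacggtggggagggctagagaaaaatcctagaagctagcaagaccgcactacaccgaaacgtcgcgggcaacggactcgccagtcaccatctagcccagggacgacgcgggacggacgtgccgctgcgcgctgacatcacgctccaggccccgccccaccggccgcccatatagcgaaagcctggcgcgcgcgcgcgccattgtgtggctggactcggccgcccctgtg
SNRPA1, chr15:101295219-101295498, minus strand: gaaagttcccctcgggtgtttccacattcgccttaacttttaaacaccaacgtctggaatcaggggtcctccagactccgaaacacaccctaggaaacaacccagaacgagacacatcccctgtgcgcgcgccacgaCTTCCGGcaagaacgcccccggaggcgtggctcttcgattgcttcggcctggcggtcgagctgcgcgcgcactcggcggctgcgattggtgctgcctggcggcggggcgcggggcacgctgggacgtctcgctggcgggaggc

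GCCATTT stood in 11 of the 52 member symbols' windows, or 21.2%, against 5.05% of all 27305 symbols. They were HNRNPC, HNRNPD, HNRNPH1, HNRNPH3, HNRNPM, HNRNPR, HNRNPUL1, SRSF1, SRSF3, SNRPA and SNRPF. By family the shares were 33.3% of HNRNP, 18.2% of SRSF, 20% of SNRP and 0% of LSM symbols. Of the 11, HNRNPH1 and HNRNPUL1 stayed within 1.5-fold in the 5 comparisons, and the others were lower by 1.5-fold in at least 1. Past 1.5-fold in either direction in any comparison were 36 of all 60 members, and 38.0% of all 12260 genes. A link between the motif and these differences was not tested. CCGGAAG stood in 26.9% of member symbols, against 11.8% of all symbols. By family it stood in 14.3% of HNRNP, 18.2% of SRSF and 20% of LSM symbols, and in 7 of 10 SNRP symbols, or 70%. The SNRP symbols were SNRPA1, SNRPB, SNRPB2, SNRPC, SNRPD2, SNRPE and SNRPG. Counted over windows the SNRP share was 9 of 15, or 60%, against 9.94% of all windows. These 7 SNRP genes span the range of the family's differences with GSK458, from SNRPA1 at −1.14 to SNRPB2 at 0.12. TTTGGCGC stood in 0 of the 52 symbols, against 0.762% of all symbols, and TGACNNNGC in 17.3% against 14.9%. The shares over all symbols include genes below a mean of 1 FPKM, unlike the 12260 genes used as background above. No share over those 12260 genes was taken, so a trait of expressed genes and one of these families cannot be told apart. The motifs were chosen after the sequences were seen.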

How the data were processed

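RNA of 4 cultures was made into libraries with the TruSeq stranded mRNA kit, per the labels' protocols. The authors deposited FPKM values for 26255 symbols. The submitters' processing notes name Cuffdiff 2.2.1, Bowtie2 2.2.8, TopHat2 2.1.1, SAMtools 0.1.18 and the build hg19, with no roles. The annotation, strand setting and treatment of multiply mapping reads are not stated in the sources used. FPKM holds no counts; absolute depth is therefore unknown, and intervals are not given. Relative depth was taken from the most frequent ratio to the control, rounded to 3 decimals, among genes under 0.5 FPKM in the control. Only genes detected in both libraries were used, and ratios far from equality were left out beforehand. Of the ratios kept, 357 of 821, 361 of 840 and 370 of 797 lay at that value or at the next rounded value on either side.

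Values were used as deposited, with a pseudocount of 1 FPKM, for genes that averaged at least 1 FPKM. Nothing was tested, since each group has 1 library. The scripts (Python 3.11.15, pandas 2.3.3) were tested on simulated data. Members and gene lists were chosen with earlier results of these data known. Named were members at least 1.5-fold apart in any comparison, the 2 highest and lowest of each family, the 2 most abundant of each family, and up to 4 genes each way of other lists; list genes not past 1.5-fold are given as counts, and some listed genes are not reported here. The 50-base words of GENCODE release 29 transcripts were compared between genes on the transcript strand. Alternatives were pseudocounts, filters, 3 scalings, a 2-fold threshold and means.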

Additional observations from a re-analysis of the deposited data

Results flagged for a closer look

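HNRNPM differed in direction between the readings of GSK458. It was lower with GSK458 than in the control (104 against 54.5 FPKM, −0.92) and higher with both drugs than with As2O3 alone (34.2 against 56.0 FPKM, 0.70), so the first difference minus the second was −1.62. The difference between the readings was not tested, since each rests on 1 pair of libraries, and both libraries with GSK458 were nearly equal. Of the 60 members 1 was at least 1.5-fold apart in opposite directions, and of all 12260 genes 22 were lower and then higher and 31 higher and then lower.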

How the results depend on the processing

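No replicate gave a spread, so a median was taken to have moved when it differed by 0.1 or more on the log2 scale and a count when it differed by more than 1.5 times. Of 270 medians recomputed under the alternatives 253 stayed within that limit, as did 88 of 108 counts and 1856 of 1992 values of named members, and no member past 1.5-fold changed sign. With a 2-fold threshold the members lower were 1 with As2O3, 3 with GSK458, 6 with both drugs, 0 for both against GSK458 and 5 for both against As2O3, those higher were 0 in each of these comparisons, and departures were above for 1 and below for 0. With libraries rescaled to a sum of 1000000, which moved the median of all genes by −0.11 for GSK458 against the control and 0.13 for the departure, the GSK458 medians were −0.53 over all members, −0.43 for HNRNP, −0.51 for SRSF, −0.72 for SNRP and −0.53 for LSM. The departure medians were 0.22, 0.25, 0.62, 0.12 and −0.0065 in that order. Under that scaling 0 members were higher with GSK458, 0 were lower for both against GSK458, and 0 departures lay below. Against the control, SRSF2 came to be lower by 1.5-fold with As2O3 (−0.62). So did LSM7 and LSM12 with GSK458 (−0.60 and −0.63), and HNRNPC and LSM5 with both drugs (−0.62 and −0.59). The 1 member higher with As2O3 was lost (0) with a pseudocount of 5 FPKM, a mean of at least 5 FPKM and upper-quartile scaling. Departures below were 4 with a pseudocount of 0.1 FPKM, 1 with 5 FPKM and 1 with upper-quartile scaling. The LSM median for both drugs against the control was −0.41 with a pseudocount of 5 FPKM and −0.64 with a mean of at least 5 FPKM, where the SRSF departure was 0.59. Means in place of medians were −0.31 for SRSF with As2O3, −0.67 for SNRP in both against As2O3, and 0.34 and −0.14 for the SRSF and SNRP departures. Without the pseudogene, antisense and readthrough members, an alternative chosen after seeing the data, 0 members were lower for both against GSK458. The causes of these shifts were not tested. No paired analysis was possible because each group holds 1 library.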
